A study of Mus musculus with 6 samples.

Results

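The genes described here are the granins and the enzymes and chaperones that turn prohormones into peptides: Vgf, Scg2, Scg3, Chga, Chgb, Pcsk1, Pcsk2, Cpe, Scg5 and Pcsk1n. All probe sets whose platform gene symbol was one of these 10 names were taken, whatever their values. They numbered 10 of the 45037 probe sets that are not controls, for 9 genes, since Cpe had a second probe set and no probe set was named for Pcsk2, which was not analysed here. All 10 probe sets passed the filter on dim values, so none of the 9 genes was lost to it. For a gene with several probe sets the brightest is meant unless another is named. Expression was read in the first lumbar segment (L1) of the spinal cord of male SCID mice, which lack working B and T lymphocytes, at an age of 15 weeks. The mice had been 9 weeks old at the start and were sampled at 6 weeks. The neural invasion (N-inv) mice had Capan-1 cells, an established line from a human pancreatic cancer, placed inside the left sciatic nerve. The subcutaneous (SC) model and the PBS model served as controls, and each group had 2 arrays. SC is read here as a tumour under the skin and counted as a tumour group. Where PBS was given is not in the labels. Nothing states outright that 2 arrays stand for 2 mice, so the p-values measure the spread between these arrays, which may in part be technical. Intensities are on the linear scale of the array after scaling to a common median, and a p counts as passing at an adjusted value of 0.05.

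Granins are acidic secretory proteins that condense in the trans-Golgi network and help to form dense core vesicles, the organelles in which neurons and endocrine cells store peptides. Inside these vesicles, convertases cut the precursors at pairs of basic residues and a carboxypeptidase trims the exposed basic residues from the new ends. In the spinal cord such vesicles are found in neurons of the dorsal horn, in motor and preganglionic neurons and in the endings of sensory fibres, and several of the granins are themselves cut into active peptides.

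RefSeq promoter windows of 300 bases (GRCm38.p6, 250 before and 50 after the start) were at hand for 8 of the 10 genes; Vgf and Cpe had none. They were searched for the cyclic AMP response element (CRE), a site bound by CREB family factors, spelled TGACGTCA and palindromic. It was found in 3 of the 8 windows, those of Scg2, Chgb and Pcsk1, and in 1.79% of the 32851 windows of that length in the table. The shorter TGACG, searched on both strands and contained in the palindrome, was found in 7 of the 8 and in 20.8% of all windows. The windows of the 3 genes with the palindrome are shown beside that of Pcsk1n, the 1 gene with no match to either spelling, to show a window with the site and one without it. The windows read 5′ to 3′ on the gene's strand, and capitals mark every match to TGACG or its reverse complement.
Scg2, chr1:79439977-79440276, minus strand: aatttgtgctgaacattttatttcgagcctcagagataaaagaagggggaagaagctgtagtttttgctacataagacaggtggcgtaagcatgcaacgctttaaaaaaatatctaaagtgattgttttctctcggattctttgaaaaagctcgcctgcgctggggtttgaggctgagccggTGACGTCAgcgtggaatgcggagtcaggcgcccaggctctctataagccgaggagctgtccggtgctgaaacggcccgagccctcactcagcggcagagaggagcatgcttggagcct
Chgb, chr2:132781392-132781691, plus strand: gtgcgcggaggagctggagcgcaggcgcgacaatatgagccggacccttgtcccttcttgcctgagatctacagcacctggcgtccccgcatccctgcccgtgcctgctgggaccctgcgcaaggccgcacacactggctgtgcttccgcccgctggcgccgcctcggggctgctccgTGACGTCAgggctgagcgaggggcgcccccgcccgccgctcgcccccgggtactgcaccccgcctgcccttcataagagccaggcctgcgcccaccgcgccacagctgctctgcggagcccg
Pcsk1, chr13:75089607-75089906, plus strand: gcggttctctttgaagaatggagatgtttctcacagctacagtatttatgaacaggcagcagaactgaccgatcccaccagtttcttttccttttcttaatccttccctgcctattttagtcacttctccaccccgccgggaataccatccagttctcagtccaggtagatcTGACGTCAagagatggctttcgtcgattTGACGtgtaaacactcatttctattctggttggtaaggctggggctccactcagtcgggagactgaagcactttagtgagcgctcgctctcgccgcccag
Pcsk1n, chrX:7919572-7919871, plus strand: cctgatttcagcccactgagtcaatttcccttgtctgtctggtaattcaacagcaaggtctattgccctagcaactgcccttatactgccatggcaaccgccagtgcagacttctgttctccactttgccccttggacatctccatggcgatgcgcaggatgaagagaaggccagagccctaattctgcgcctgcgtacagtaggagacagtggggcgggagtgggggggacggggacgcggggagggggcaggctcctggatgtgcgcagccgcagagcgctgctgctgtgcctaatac
The palindrome began 68, 72 and 78 bases before the start in Scg2, Chgb and Pcsk1. A match is a description of the letters, and binding was not measured.

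The arrays differed in ways that touch these genes. The median correlation of each SC array with the other arrays was 0.972 and 0.971, against 0.981 in each of the other 4. The Actb control probes gave 3' to 5' ratios of 3.81 and 4.70 in SC and between 3.05 and 3.57 elsewhere. Those of Gapdh were 2.82 and 3.02 in PBS, 3.12 and 3.38 in N-inv, with 3.52 and 3.38 in SC, so both N-inv arrays lay above both PBS arrays. These ratios grow as RNA degrades, and their part in the results was not tested. SC replicate 2 measured 13065 for Xist, an RNA of female cells, where the other 5 arrays lay between 138.6 and 228.5, although all mice are labelled male. The Y-linked Eif2s3y was also highest in SC replicate 2, at 3152, and lowest in SC replicate 1, at 1344, with the other 4 arrays between 2369 and 2651. The main results that use the SC arrays are therefore given with each of them left out in turn. All 12 neuronal markers of a list passed the filter. Their summed intensity lay between 239100 and 242500 in PBS, 251000 and 263000 in N-inv, and from 232900 to 265500 in SC. Of them 11 were higher in N-inv than in PBS, with a median log2 difference of 0.10. A different number of neurons and a different amount of RNA per neuron cannot be told apart in such bulk tissue, and the part of the neuronal markers in the results below was not tested. Of 10 markers of dorsal root ganglion neurons 7 were on the array, and 2 of them, Pou4f1 and Isl2, passed the filter. Scn10a, which defines nociceptive ganglion neurons, lay between 4.70 and 73.9, below the filter. Pou4f1 measured 564.7 and 553.1 in PBS, 666.4 and 641.7 in N-inv, with 818.1 and 892.7 in SC, higher in all 4 tumour arrays. Isl2 overlapped between groups, at 250.7 and 363.3 in PBS, 441.2 and 292.9 in N-inv, with 281.1 and 261.3 in SC. Avil, below the filter, was lower in all 4 tumour arrays. It measured 91.8 and 112.1 in PBS, 40.4 and 20.3 in N-inv, with 44.9 and 62.7 in SC. The 7 markers, of which Pou4f1 was the brightest, summed to 1211 to 1360 in PBS, 1337 to 1385 in N-inv and 1515 to 1529 in SC. Markers of chromaffin and endocrine cells, which also make granins, numbered 6 of 8 on the array and 4 above the filter. The 6 had sums of 795 to 1095 in PBS, 1137 to 1747 in N-inv and 1416 to 1625 in SC. In N-inv against PBS Th and Pnmt were higher and Dbh and Slc18a1 lower. The N-inv arrays of Th and Pnmt lay wholly above PBS, against 25.2% of genes, and those of Dbh and Slc18a1 overlapped PBS. The unadjusted p was under 0.05 for the 2 higher genes, against 2.19% of genes, and 0 passed the adjusted threshold. In SC against PBS all 4 were higher, where 46.8% of all genes were. Their part in the results was not tested either.

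The group mean of Vgf was highest in the mice with tumour cells in the nerve, although the single highest array was in SC. It encodes a secreted neuronal precursor whose peptides act in energy balance and in pain pathways. Its scaled intensity was 2749 and 2880.1 in PBS, 6329.8 and 6394 in N-inv, with 3548 and 6479 in SC. The N-inv arrays lay 2.26 times above the PBS arrays by their means and almost on top of each other, while the SC arrays fell far apart, one near PBS and one level with N-inv. The log2 difference between N-inv and PBS was 1.17 ± 0.28 (SE, n = 2 each; 95% interval 0.50 to 1.84; adjusted p = 1 in limma). By size it ranked 25 of 12614 genes and by p 42. In SC against PBS it was 0.76 ± 0.28 (SE, adjusted p = 0.594 in limma). It was 0.33 without SC replicate 2 and 1.20 without SC replicate 1. In N-inv against SC the difference was 0.41 ± 0.28 (SE, adjusted p = 0.718 in limma). It was 0.84 without SC replicate 2 and -0.03 without SC replicate 1, so the comparison of the 2 tumour sites turned on which SC array was kept. Scaling decided whether these groups overlapped. In the values as deposited SC replicate 2 was at 6111, below the N-inv arrays at 6193 and 6238.

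Scg2 was above PBS in both tumour groups. It encodes secretogranin II, the precursor of the peptide secretoneurin. Its intensity was 8208 and 9801 in PBS, 10963 and 13197 in N-inv, with 11283 and 15988 in SC. Every array of a tumour-bearing mouse exceeded both PBS arrays, and the N-inv and SC arrays overlapped. The log2 difference was 0.42 ± 0.23 (SE, adjusted p = 1 in limma) in N-inv against PBS and 0.58 ± 0.23 (SE, adjusted p = 0.615 in limma) in SC against PBS. The latter was 0.33 with SC replicate 2 left out and 0.83 with SC replicate 1 left out.

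Scg3 encodes secretogranin III, which binds cholesterol-rich vesicle membrane and tethers other granins there. It measured 11990.5 and 13099 in PBS, 15093 and 15426 in N-inv, with 11833 and 15685 in SC. Both N-inv arrays lay above both PBS arrays, and after scaling the SC arrays bracketed all the others. In the values as deposited both SC arrays, at 12892 and 14794, lay above PBS at 12288 and 12811. The N-inv against PBS difference was 0.28 ± 0.19 on the log2 scale (SE, adjusted p = 1 in limma). In SC against PBS it was 0.12 ± 0.19, with -0.08 when SC replicate 2 and 0.32 when SC replicate 1 was left out.

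For Chga and Chgb, the chromogranins that make up much of the vesicle core, no 2 groups were separated after scaling. Chga measured 9255 and 8863 in PBS, 10405 and 7996 in N-inv, with 9167 and 7316 in SC. Its spread inside the N-inv group was wider than any distance between group means. Chgb measured 16664 and 19076 in PBS, 17387 and 20059.8 in N-inv, with 18105 and 21392 in SC, and the 3 groups overlapped. As deposited, the SC arrays of Chgb, at 19727 and 20177, lay above PBS at 17076 and 18655 and above N-inv at 17011 and 19571. In N-inv against PBS the log2 difference of Chga was 0.01, with a 95% interval from -0.47 to 0.49. For Chgb it was 0.07, with an interval from -0.36 to 0.50. These intervals leave room for differences as large as those of Scg2 and Pcsk1 in the same comparison.

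**Figure D1:**
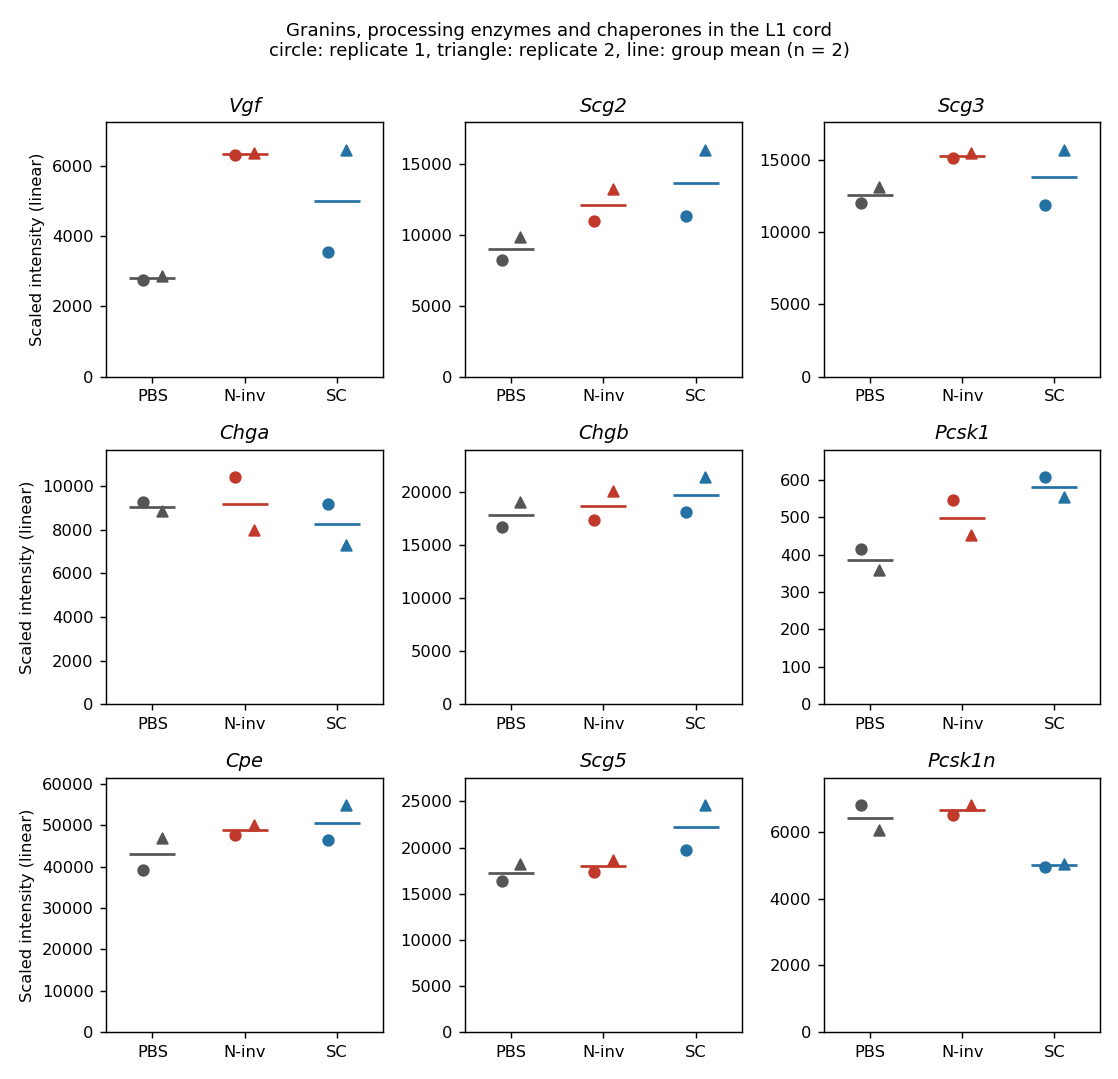
Scaled intensity (linear axis from 0) of the brightest probe set of each of the 9 genes in PBS, N-inv and SC arrays; circles are replicate 1, triangles replicate 2 and lines the group means of 2 arrays. Vgf lay at 2749 and 2880.1 in PBS and at 6329.8 and 6394 in N-inv, with the SC arrays apart at 3548 and 6479, while Pcsk1n was lowest in both SC arrays.

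Among the enzymes, Pcsk1 was higher in both tumour groups and highest in SC. It encodes a prohormone convertase that makes the first cuts in many neuropeptide precursors. It measured 414.3 and 357.9 in PBS, 546.9 and 451.6 in N-inv, with 607.3 and 554.6 in SC. The groups did not overlap, in the order PBS, N-inv, SC. The neighbouring groups N-inv and SC differed by -0.21 ± 0.18 on the log2 scale (SE, 95% interval -0.64 to 0.21), and in the values as deposited they overlapped. The log2 difference was 0.35 ± 0.18 (SE, adjusted p = 1 in limma) in N-inv against PBS and 0.56 ± 0.18 (SE, adjusted p = 0.573 in limma) in SC against PBS. The latter was 0.62 without SC replicate 2 and 0.50 without SC replicate 1.

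Cpe encodes carboxypeptidase E, which removes the basic residues left by the convertases. Its brightest probe set measured 39158 and 46946 in PBS, 47704 and 49975 in N-inv, with 46373 and 54933 in SC. After scaling the N-inv arrays were above both PBS arrays and the SC arrays overlapped them. In the values as deposited the SC arrays, at 50526 and 51814, were above both PBS (40129 and 45911) and N-inv (46671 and 48756). The log2 difference was 0.19 ± 0.18 (SE, adjusted p = 1 in limma) in N-inv against PBS and 0.24 ± 0.18 (SE, adjusted p = 0.811 in limma) in SC against PBS. The first was 0.057 without PBS replicate 1 and 0.32 without PBS replicate 2. The second was 0.10 and 0.37 in the same order, 0.11 without SC replicate 2 and 0.36 without SC replicate 1. A second, dim probe set ran the other way, at 221.0 and 214.4 in PBS, 193.5 and 157.6 in N-inv, with 171.7 and 123.9 in SC. Its name carries the array maker's mark for probes that may bind other transcripts. Its log2 difference was -0.28 ± 0.20 (SE, adjusted p = 1 in limma) in N-inv against PBS and -0.50 ± 0.20 (SE, adjusted p = 0.621 in limma) in SC against PBS. The direction for Cpe therefore depends on which probe set is read, and their mean gave -0.05 and -0.13.

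The 2 small partners of the convertases set SC apart from both other groups, in opposite directions. Scg5 encodes the chaperone that the convertase of Pcsk2 needs to mature. It measured 16337 and 18221 in PBS, 17373 and 18632 in N-inv, with 19785 and 24617 in SC. Both SC arrays lay above the other 4, and the N-inv and PBS arrays overlapped. The log2 difference was 0.35 ± 0.18 (SE, adjusted p = 0.697 in limma) in SC against PBS and -0.29 ± 0.18 (SE, adjusted p = 0.682 in limma) in N-inv against SC. Leaving out SC replicate 2 gave 0.20 and -0.14, and leaving out SC replicate 1 gave 0.51 and -0.45.

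Pcsk1n encodes proSAAS, a granin-like protein that inhibits the convertase of Pcsk1. It measured 6797 and 6069 in PBS, 6503 and 6813 in N-inv, with 4962 and 5037 in SC. Both SC arrays were below all 4 others and close to each other. The log2 difference was 0.41 ± 0.16 in N-inv against SC (SE, 95% interval 0.04 to 0.78, adjusted p = 0.524 in limma). In SC against PBS it was -0.36 ± 0.16 (SE, adjusted p = 0.644 in limma). They were 0.42 and -0.37 with SC replicate 2 left out, and 0.40 and -0.35 with SC replicate 1 left out. In N-inv against PBS it was 0.05 ± 0.16 (SE, adjusted p = 1 in limma).

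Counted together, 9 of 9 genes had a log2 difference above 0 in N-inv against PBS, where 59.9% of all 12614 genes did. Their median was 0.19, against 0.04 over all genes. The N-inv arrays lay wholly above the PBS arrays for 5 of the 9, Vgf, Scg2, Scg3, Pcsk1 and Cpe, against 25.2% of all genes, and wholly below for 0, against 12.6%. None of the 9 passed the adjusted threshold in limma, and neither did any of the 27022 probe sets tested (0%), of which 1097 (4.06%) had an unadjusted p under 0.05. Among the 9 genes 1 had such a p, Vgf, against 3.35% of genes. The differences of Scg5, Chga and Pcsk1n turned negative under quantile normalization (-0.0074, -0.046 and -0.0013), that of Chgb without N-inv replicate 2 (-0.036), and that of Cpe with the mean of its probe sets. Markers of other cells differed in the same comparison, with 0 past the adjusted threshold. All 9 microglial markers measured were higher, with sums of 19650 to 20210 in PBS and 27540 to 32110 in N-inv, and 7 of 8 astrocyte markers were higher, with sums of 172000 to 182300 and 209600 to 211900. In SC these sums were 17580 to 20410 and 158300 to 195700. Their part in the values of the granins was not tested.

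In SC against PBS 7 of 9 genes were higher and Chga and Pcsk1n lower, with a median of 0.24 against -0.02 over all genes, of which 46.8% were higher. The SC arrays lay wholly above PBS for 4, Vgf, Scg2, Pcsk1 and Scg5, against 13.7% of genes, and wholly below for 1, Pcsk1n, against 19.8%. In the values as deposited the former count was 7, against 19.4%. None of the 9 passed the adjusted threshold in limma (0% of all probe sets, with 2141 or 7.92% at an unadjusted p under 0.05). Among the 9 genes 3 had an unadjusted p under 0.05, against 6.73% of genes. Without SC replicate 2 the median of the 9 was 0.11 against -0.11 over all genes, and without SC replicate 1 it was 0.36 against 0.08. The counts of higher and lower genes were 7 and 2 in both cases. Beside this, 5 of 7 oligodendrocyte markers lay wholly below PBS in SC, against 19.8% of genes. Of these 4 had an unadjusted p under 0.05 and 0 passed the adjusted threshold. The other 2, the brightest of the list, were higher by their means. Mbp lay wholly above PBS, at 69608 and 75406 in PBS and 80640 and 83710 in SC, and Mobp overlapped. The median log2 difference of the 7 was -0.57. The sums of the 7 were 199400 to 212500 in PBS, 213500 to 214900 in N-inv and 197800 to 199100 in SC, and their part in the values of the granins was not tested.

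In N-inv against SC 4 of 9 genes were higher and 5 lower, with a median of -0.05 against 0.06 over all genes, of which 60.5% were higher. The groups did not overlap for Pcsk1n, higher in N-inv (25.4% of genes), and for Scg5 and Pcsk1, lower in N-inv (11.3% of genes). In the values as deposited 2 genes lay wholly above, Vgf and Pcsk1n (20.9% of genes), and 3 wholly below, Scg5, Chgb and Cpe (18.9%). None of the 9 passed the adjusted threshold in limma (0% of all probe sets, with 2417 or 8.94% at an unadjusted p under 0.05). Pcsk1n was the 1 gene of the 9 with an unadjusted p under 0.05, against 8.2% of genes. Without SC replicate 2 the split was 6 higher and 3 lower, and without SC replicate 1 it was 2 higher and 7 lower. This comparison and the former ones share arrays, so their directions are not independent of each other.

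Set against the mean of both control groups, N-inv had no gene of the 9 whose arrays lay wholly above or below the other 4, where 10.8% and 3.63% of genes did. As deposited, the values of 1 gene lay wholly above, Vgf. The share of all genes that did so in these values is not at hand, so this count is not read as a trait of Vgf. None of the 9 passed the adjusted threshold in limma (0% of all probe sets, with 1560 or 5.77% at an unadjusted p under 0.05). Vgf had the largest log2 difference of the 9, 0.79 ± 0.24 (SE, adjusted p = 0.822 in limma), and was the 1 gene of the 9 with an unadjusted p under 0.05. It was 1.004 without SC replicate 2 and 0.57 without SC replicate 1. A contrast of both tumour groups together with PBS was added after the values were seen. In it the 4 tumour arrays lay wholly above both PBS arrays for 3 of 9 genes, Vgf, Scg2 and Pcsk1, against 6.11% of all genes, and in the values as deposited for 5, against 6.75%. For these 3 genes limma gave 0.97 ± 0.24, 0.50 ± 0.20 and 0.45 ± 0.15 on the log2 scale (SE, adjusted p = 0.997, 0.998 and 0.997). None of the 9 passed the adjusted threshold in limma (0% of all probe sets, with 1336 or 4.94% at an unadjusted p under 0.05). Without SC replicate 2 the count was 3 against 8.44% of genes, and without SC replicate 1 it was 5 against 16.2%.

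**Figure D2:**
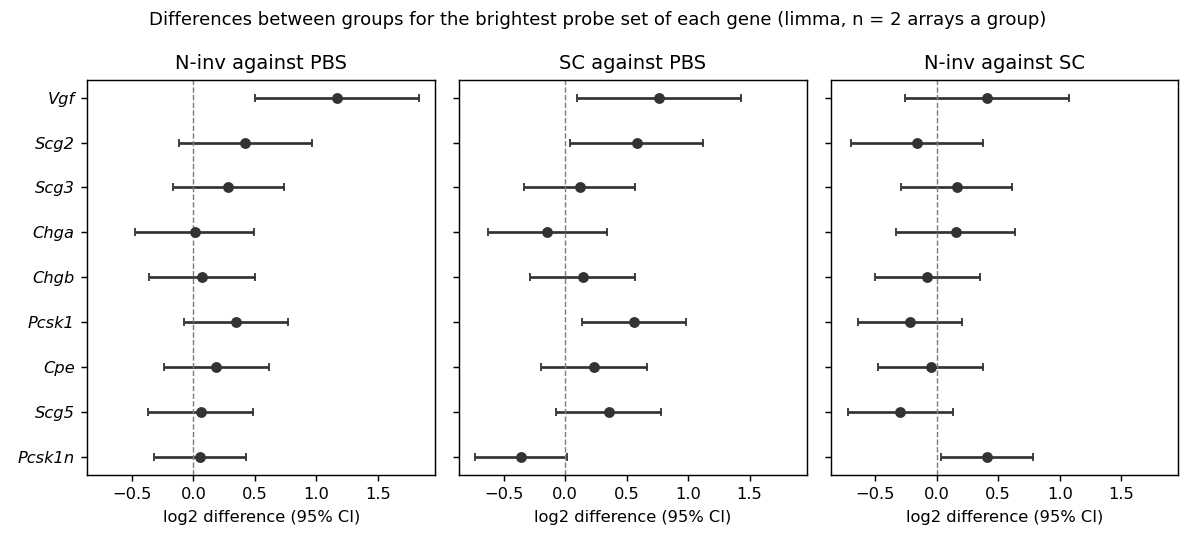
Log2 differences with 95% confidence intervals from limma (horizontal axis) for the 9 genes (rows) in N-inv against PBS, SC against PBS and N-inv against SC, with 2 arrays a group. The interval of Vgf in N-inv against PBS ran from 0.50 to 1.84, and those of Scg3, Chga, Chgb, Cpe and Scg5 spanned 0 in all 3 comparisons.

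The cargo and machinery of the same vesicles were read from lists. Of 28 neuropeptide precursors 23 passed the filter. In N-inv against PBS 15 were higher and 8 lower, with a median log2 difference of 0.21 against 0.04 over all genes, and 0 passed the adjusted threshold. The unadjusted p was under 0.05 for 7 higher genes and 1 lower gene, where 2.19% and 1.17% of all genes were so. The N-inv arrays lay wholly above PBS for 11 of the 23 and wholly below for 7, against 25.2% and 12.6% of genes. The lower gene was Adm, the precursor of adrenomedullin, named after its values were seen, at 615.3 and 500.3 in PBS, 414.3 and 277.1 in N-inv, with 659.8 and 921.3 in SC. In SC against PBS 15 were higher and 8 lower, where 46.8% of all genes were higher. The median was 0.19 against -0.02 over all genes. It was -0.04 against -0.11 without SC replicate 2, and 0.44 against 0.08 without SC replicate 1.

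Crh, the precursor of corticotropin releasing hormone, measured 339.1 and 402.3 in PBS, 979.2 and 865.3 in N-inv, with 1132 and 779.7 in SC. Tac1, which encodes substance P, measured 3385 and 4779 in PBS, 9169 and 9327 in N-inv, with 5480 and 7127 in SC. Cartpt, the precursor of the CART peptides, measured 702.8 and 634.0 in PBS, 1006 and 1577 in N-inv, with 1185 and 1375 in SC. In these 3 genes, as in Vgf, Scg2 and Pcsk1, all tumour arrays exceeded both PBS arrays. Pnoc, which encodes nociceptin, did so too, at 380.6 and 436.9 in PBS, 621.2 and 823.6 in N-inv, with 822.5 and 647.7 in SC. These 4 were named for their small p in N-inv against PBS, which favours this pattern. Over the list 6 of the 23 showed it, against 6.11% of all genes. In 1 all tumour arrays were below PBS, for which the share of all genes is not at hand. The log2 differences of Crh, Tac1, Cartpt and Pnoc in N-inv against PBS were 1.26, 1.20, 0.89 and 0.77, with adjusted p in limma of 0.94, 0.96, 1 and 1. In N-inv against SC they were -0.03, 0.56, -0.02 and -0.03. With SC replicate 2 left out these became -0.29, 0.75, 0.087 and -0.19, and with SC replicate 1 left out 0.23, 0.37, -0.12 and 0.14, so that Tac1 alone of the 4 kept its sign.

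For the maturation and release of dense core vesicles 21 of 24 genes passed the filter. In N-inv against PBS 15 were higher and 6 lower, with a median of 0.08, and 0 passed the adjusted threshold. Over all genes 59.9% were higher and the median was 0.04. The N-inv arrays lay wholly above PBS for 10 of the 21 and wholly below for 1, against 25.2% and 12.6% of genes. An unadjusted p under 0.05 was reached by 1 of the 21, where 3.35% of all genes reached it. It was Kif1a, the kinesin that carries these vesicles along axons. Kif1a measured 988.6 and 1031 in PBS, 1545 and 1338 in N-inv, with 1519 and 1608 in SC, so that all tumour arrays were higher. That held for 2 of the 21 genes, against 6.11% of all genes. Syt4, a synaptotagmin of vesicle membranes, measured 3985 and 4422 in PBS, 5458 and 6031 in N-inv, with 3836 and 5818 in SC. Eipr1, a factor of vesicle sorting, measured 654.5 and 675.8 in PBS, 783.2 and 835.2 in N-inv, with 559.3 and 492.3 in SC. Cyb561, an electron carrier of the vesicle membrane, measured 1789 and 2155 in PBS, 2513 and 2246 in N-inv, with 1910.2 and 2412 in SC. In Eipr1 the SC arrays were the lowest of the 6, as in Pcsk1n.

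Of 19 other peptide processing enzymes 16 passed the filter, with 7 higher and 9 lower in N-inv against PBS, a median of -0.05 and 0 genes past the adjusted threshold or an unadjusted p of 0.05. Ece2, an endothelin converting enzyme of acidic compartments, measured 740.1 and 841.5 in PBS, 600.4 and 670.0 in N-inv, with 419.6 and 428.0 in SC. Qpctl, a glutaminyl cyclase of the Golgi, measured 496.9 and 537.2 in PBS, 399.8 and 385.5 in N-inv, with 417.9 and 507.5 in SC. Pam, which amidates peptide ends, measured 1193 and 1260 in PBS, 438.6 and 1265 in N-inv, with 1457 and 1108 in SC. The low value of Pam was confined to N-inv replicate 1 among the 6 arrays. Ctsl, the protease cathepsin L, measured 9043 and 10020 in PBS, 11412 and 11388 in N-inv, with 7058 and 11235 in SC. In SC against PBS 6 of the 16 were higher and 10 lower. An unadjusted p under 0.05 was reached there by 2, both lower, against 6.73% of genes, and 0 passed the adjusted threshold. Ece2 was 1 of the 2, at -0.86 ± 0.16 on the log2 scale (SE, adjusted p = 0.5 in limma). It was -0.87 without SC replicate 2 and -0.84 without SC replicate 1.

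Of 4 receptors of granin peptides 3 passed the filter. Gpr83, a receptor of a proSAAS peptide, measured 727.9 and 606.5 in PBS, 696.3 and 774.8 in N-inv, with 961.2 and 856.5 in SC, highest in SC. C3ar1, the complement receptor that a Vgf peptide also binds, measured 194.8 and 210.8 in PBS, 156.0 and 224.1 in N-inv, with 98.6 and 284.9 in SC. C1qbp, the other receptor named for that peptide, measured 26911 and 27838 in PBS, 27775 and 28254 in N-inv, with 28206 and 29459 in SC. None of the 3 passed the adjusted threshold in limma, nor an unadjusted p of 0.05 in N-inv against PBS. Gpr83 had an unadjusted p under 0.05 in SC against PBS, as had 6.73% of all genes. Its log2 difference was 0.44 ± 0.17 (SE, adjusted p = 0.621 in limma). The SC arrays lay wholly above PBS for 2 of the 3, Gpr83 and C1qbp, against 13.7% of genes.

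The genes whose pattern over the 6 arrays was most like that of Vgf were Eef2, Epas1, C1qa, Ext2 and Hspb1, with Pearson correlations between 0.986 and 0.994 on the log2 scale. They are a description of 6 points that share their scaling, drawn from 12614 genes. Hspb1, a small heat shock protein, measured 3025 and 3149 in PBS, 4568 and 4947 in N-inv, with 3737 and 4991 in SC. C1qa, a complement subunit made by microglia, measured 1328 and 1288 in PBS, 2403 and 2183 in N-inv, with 1501 and 2437 in SC. In both, as in Vgf, SC replicate 1 lay below the N-inv arrays and SC replicate 2 above them. The genes most like the mean standardised pattern of the 9 genes were Arpc1a, Mdn1, Arpc2, Gm10336 and Anapc5, with correlations between 0.991 and 0.996. Each of them, too, was highest in SC replicate 2.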

How the data were processed

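RNA was labelled for Affymetrix 3' arrays with a two-cycle kit, starting from 100 ng per sample, per the labels' protocols. The authors deposited 1 linear intensity per probe set and array, whose trimmed mean was 1000 in each array, and how the authors summarised and scaled them is not stated in the labels. Of 45101 probe sets 64 controls were left out. Gene symbols came from the platform annotation (1 symbol for 34945 probe sets, several for 932, none for 9160). Intensities were scaled so that all arrays shared the median 256.3, then turned into log2(intensity + 25.6), which understates fold changes of dim genes. Probe sets above the 40th percentile of the mean were kept (27022, of 12614 genes, cutoff 147.7). limma 3.58.1 in R 4.3.3 (lmFit, eBayes, two-sided) modelled the 6 arrays with 1 mean a group, and p-values were adjusted by Benjamini-Hochberg across the probe sets kept. The code was tested on simulated data. With 2 arrays a group the smallest exact two-sided permutation p is 0.333, so none was computed. The number of arrays limits the precision. The genes and lists were chosen with earlier results of these data known. All 10 genes are named, and from each list up to 4 genes with the smallest p in N-inv against PBS. Alternatives were other scalings, pseudocounts, filters, an intensity trend, only the groups compared, a replicate block, the mean over probe sets and each array left out.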

Additional observations from a re-analysis of the deposited data

How the results depend on the processing

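The limits are the number of arrays and the 2 SC arrays, which disagree with each other. Vgf kept its direction in N-inv against PBS in all 17 alternatives, between 1.13 and 1.20 (log2). Several of the 17 return the main estimate by construction, so the count overstates how far it was tested. They are the filters, intensity trend, groups compared, replicate block, mean over probe sets and leaving out an SC array. The replicate numbers do not pair the arrays: deviations of same-numbered arrays correlated at 0.01, 0.04 and -0.03. With the replicate block 0 probe sets were called in each comparison, and the block changed no call. The estimate of Vgf, 1.17, cannot move under this balanced block. The causes of the changes below were not tested.

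Probe sets called numbered 0 in each comparison. With an intensity trend there was 1 in N-inv against PBS, 2 in N-inv against SC and 1 in N-inv against both controls, and with only the groups compared 1 in N-inv against PBS. Leaving out 1 array gave 0 to 1 in N-inv against PBS, 0 to 1 in N-inv against SC, 0 to 9 in SC against PBS, 0 to 1 in N-inv against both controls and 0 to 2 in both tumour groups against PBS. The 9 and the 2 came without SC replicate 1, and the 1 in N-inv against both controls without SC replicate 2. None of the 9 genes was called under any alternative. Their median moved by more than its replicate spread of 0.12 in SC against PBS, to 0.090 with quantile normalization. With the mean over a gene's probe sets it moved to 0.067 in N-inv against PBS and 0.087 in N-inv against SC. Leaving out 1 array gave medians of 0.10 to 0.37 in SC against PBS and -0.15 to 0.074 in N-inv against SC.

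Of 908 values, 33 changed sign, all of them differences of single genes. The 908 also hold the medians and the counts of probe sets called, in which a change of sign was not counted. The median of the 9 in N-inv against SC, -0.05, also changed sign. It was 0.074 without SC replicate 2 and 0.087 with the mean over probe sets. With quantile normalization Scg5, Chga and Pcsk1n were at -0.0074, -0.046 and -0.0013 in N-inv against PBS and Cpe at 0.015 in N-inv against SC, and as deposited Chga was at -0.025 in N-inv against PBS. With the mean over probe sets Cpe was at -0.046 in N-inv against PBS, 0.087 in N-inv against SC, -0.13 in SC against PBS and -0.090 in both tumour groups against PBS. Leaving out 1 array gave these ranges. In N-inv against PBS they were -0.018 to 0.14 for Scg5, -0.18 to 0.20 for Chga, -0.036 to 0.17 for Chgb and -0.030 to 0.13 for Pcsk1n. In N-inv against SC they were -0.026 to 0.84 for Vgf, -0.41 to 0.092 for Scg2, -0.040 to 0.37 for Scg3, -0.034 to 0.34 for Chga, -0.20 to 0.045 for Chgb and -0.17 to 0.074 for Cpe. In SC against PBS they were -0.083 to 0.32 for Scg3 and -0.31 to 0.017 for Chga. Against both controls they were -0.0018 to 0.27 for Scg2, -0.11 to 0.27 for Chga, -0.11 to 0.10 for Chgb and -0.064 to 0.20 for Pcsk1. In both tumour groups against PBS Chga lay between -0.16 and 0.027.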
